A study of Mus musculus with 8 samples.

Results

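The mouse mitochondrial genome is annotated with 37 genes, and all of them had a row in the count files of 8 total RNA libraries from mouse embryonic stem cells (ESCs). They were chosen by name, as the genes whose symbol starts with mt-, from 55401 genes, of which 55141 had a symbol. They comprised 13 mRNA genes, 2 rRNA genes and 22 tRNA genes. Only 17 of the 37 carried enough reads to be tested, and 13 had no read in any library.

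ESCs were sequenced in 3 groups: Control with 2 libraries, Zzz3_auxin with 3 and Yeats2_auxin with 3, called Control, Zzz3 auxin and Yeats2 auxin below. In the auxin groups, ZZZ3 or YEATS2, subunits of the chromatin-acetylating ATAC coactivator complex, was fused to an auxin-inducible degron, a tag that directs the protein to degradation, and 500 µM auxin was given for 24 h. By the study's general methods, ESCs were grown on gelatin in serum, LIF and 2 kinase inhibitors (2i). They were kept under selection for Tir1, the plant F-box protein that the degron needs. Whether this selection held for the Control cells is not stated separately. The labels give no line and no treatment for the Control cells. The study's data legends name the degron-tagged cells with DMSO as the reference of its estimates, whereas its methods name wild type. An effect of auxin itself, or of a different line, cannot be told apart from the depletion. Nothing in the labels says which libraries came from separate cultures. The P values therefore measure only the spread between these libraries.

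Mitochondrial DNA is transcribed from both of its strands by a dedicated single-subunit RNA polymerase into long precursors. Most genes lie on the plus strand of the annotation, and tRNAs sit between the mRNAs and rRNAs like punctuation: cleavage at both ends of each tRNA, by RNase P and by the RNase Z enzyme ELAC2, releases the mature RNAs. The mRNAs encode subunits of respiratory complexes I, III and IV and of ATP synthase, and the rRNAs and tRNAs serve their translation inside the organelle. In these files, 12 mRNAs, both rRNAs and 14 tRNAs lay on the plus strand, whereas mt-Nd6 and 8 tRNAs lay on the minus strand. All coordinates refer to GRCm38.

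The genes in the middle of the genome were missing from the counts. From mt-Ts1 to mt-Nd4l, along chrM:6870-10173, 10 of 11 consecutive genes had no read in any library, and mt-Co2 had a single read in all 8 together. These 11 genes, 6 mRNAs and 5 tRNAs, lay wholly inside a stretch of 4662 bases, chrM:6381-11042, that is matched by 7 annotated pseudogenes in a row on the minus strand of chromosome 1, chr1:24611535-24616197. Such a stretch is a nuclear copy of mitochondrial DNA. The copy held the 3′ end of mt-Co1, from its base 1054 (Gm29216), all of mt-Co2 (Gm28661), mt-Atp6 (Gm10925), mt-Co3 (Gm28437), mt-Nd3 (Gm28438) and mt-Nd4l (Gm10222) up to their last bases, and the first 876 bases of mt-Nd4 (Gm28439). Gm28661, Gm10925, Gm28437, Gm10222 and Gm28439 had no difference from the mitochondrial gene over their length, Gm28438 had 1 and Gm29216 had 6. The first 100 bases of mt-Co2 and of its copy are shown because no read within them can be placed in 1 genome rather than the other.

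mt-Co2, chrM:7013-7112, plus strand: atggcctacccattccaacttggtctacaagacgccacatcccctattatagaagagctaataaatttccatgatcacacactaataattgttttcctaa
Gm28661, chr1:24615466-24615565, minus strand: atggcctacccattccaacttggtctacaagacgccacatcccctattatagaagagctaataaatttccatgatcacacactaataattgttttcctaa

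By the methods of the study, only uniquely aligned reads were counted and reads shorter than 40 bases were removed. Of all 40-base stretches of a gene, 100% were found in annotated nuclear transcripts for mt-Co2, 99.9% for mt-Co3, 99.5% for mt-Atp6, 98.8% for mt-Nd4l and 98.1% for mt-Nd3. For mt-Atp8 and for the tRNAs between these mRNAs no annotated pseudogene covers the copy, and 2.42% of mt-Atp8 and none of the tRNA stretches were matched, since only transcripts and no genome sequence were searched. Reads that align to several places are set apart in the tally of the files and made up 45.6% to 51.7% of all reads in a library. How many of them came from mitochondria was not tested. Sequencing was by read pairs of 100 bases, by the same methods. For mt-Co2, mt-Atp6, mt-Co3, mt-Nd3 and mt-Nd4l, 97.6% to 99.9% of the 100-base stretches were shared as well. Nearly all single reads of either length could not be placed there, and the counts of these genes are no measure of their RNA. Placement by the second read of a pair was not examined. For mt-Atp8 and the 5 tRNAs the flanking pseudogenes alone place them inside the copy, and why they had no read was not tested. The pseudogenes themselves took up few reads, 262 over all 7 and all 8 libraries, of which 232 fell on Gm28438, with 21 to 37 in each library.

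**Figure D1:**
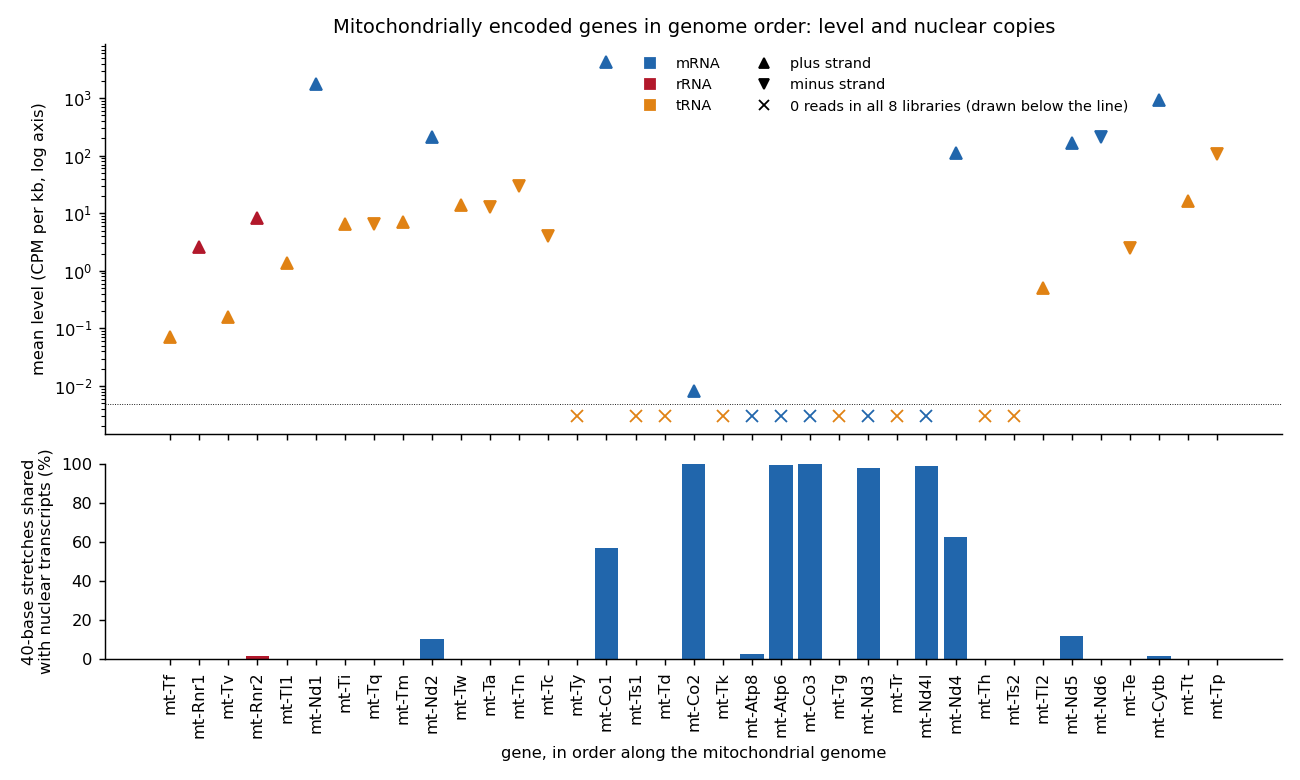
Level and nuclear copies of the 37 mitochondrially encoded genes in genome order. The upper panel gives the mean over 8 libraries in CPM per kb on a log axis (upward triangles, plus strand, downward triangles, minus strand, crosses, 0 reads in every library), and the lower panel the percent of a gene's 40-base stretches found in annotated nuclear transcripts. The 5 mRNAs at 0, and mt-Co2 with 1 read, lie between mt-Co1 and mt-Nd4.

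A second nuclear copy, on chromosome 2, left mt-Co1 measurable. The pseudogene Gm13340, chr2:22588103-22589647 on the minus strand, spans all 1545 bases of mt-Co1 with 37 differences, and the 3′ end is also in the copy on chromosome 1. Of the 40-base stretches of mt-Co1, 57.0% were shared with nuclear transcripts, but only 30.8% of its 100-base stretches were, and the gene still gave the most reads of the class. The window of 100 bases with the most differences between both sequences follows, with the bases that differ in capitals. Reads that cross such bases can be placed.

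mt-Co1, chrM:5762-5861, plus strand: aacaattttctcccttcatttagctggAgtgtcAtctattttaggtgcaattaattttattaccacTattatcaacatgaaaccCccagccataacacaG
Gm13340, chr2:22589114-22589213, minus strand: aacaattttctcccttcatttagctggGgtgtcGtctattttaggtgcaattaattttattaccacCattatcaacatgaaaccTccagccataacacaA

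This window held 5 differences. Gm13340 itself had 19 to 39 reads per library, against a mean of 155438 for mt-Co1. mt-Nd4 had 62.5% of its 40-base stretches in nuclear transcripts, and mt-Nd5 and mt-Nd2 had 12.0% and 10.1%. mt-Nd1, mt-Nd6 and mt-Rnr1 had none, and mt-Cytb and mt-Rnr2 had 1.36% and 1.69%. Outside the chromosome 1 stretch, mt-Ty, mt-Th and mt-Ts2 had no read, although no annotated nuclear transcript shares a 40-base stretch with them. mt-Tw, mt-Ta, mt-Tn, mt-Tc and mt-Ty lie between mt-Nd2 and mt-Co1. Gm13339, a pseudogene at chr2:22590024-22590533 on the minus strand, matches mt-Nd2 from base 529 with 17 differences. It lies beside Gm13340 in the same order. By these flanking pseudogenes alone, the tRNAs between them lie inside the chromosome 2 copy, whose part in their counts was not tested. A count of 0 allows up to 3 reads, or 0.109 to 0.201 CPM (counts scaled to a common library size, by TMM), by counting error alone.

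The 3 RNA classes differed in yield by orders of magnitude. Over all libraries, mRNAs took 1897791 reads or 99.7% of the mitochondrial reads, rRNAs 2801 reads and tRNAs 2644 reads. By the methods of the study, rRNA was depleted before sequencing and rRNA reads were removed again before alignment. Mature tRNAs are shorter than the usual insert of such a library, and the part of this in the tRNA counts was not tested. A read that overlaps a tRNA and its neighbour is also left unassigned by union counting. The tRNA and rRNA values are given as counts and not as an estimate of the abundance of these RNAs, and some of their reads may belong to precursors, which was not tested. At least 1 read was found for 8 of 13 mRNAs, both rRNAs and 14 of 22 tRNAs, and 7, 2 and 8 of them were tested.

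Of the reads assigned to genes, mitochondrial mRNAs made up 1.23% and 1.07% in Control, 1.15%, 0.930% and 1.08% in the Zzz3 auxin libraries and 0.987%, 0.617% and 1.06% in those of Yeats2 auxin. The 95% Wilson intervals of these shares, which cover counting error only, extended at most 0.00537 percentage points to either side. Means were 1.15% ± 0.110 (SD, n = 2), 1.06% ± 0.114 (SD, n = 3) and 0.887% ± 0.237 (SD, n = 3). Zzz3 auxin overlapped Control, every Yeats2 auxin library lay below both Control libraries, and replicate 2 of Yeats2 auxin was the lowest of the 8. The separation of Yeats2 auxin depended on the denominator. As a share of all reads of a library, Control had 0.407% and 0.34046%, and Yeats2 auxin had 0.34051%, 0.208% and 0.365%, so that both overlapped. The tRNA genes received 459 and 357 reads in Control, 297, 340 and 141 in the Zzz3 auxin libraries and 362, 322 and 366 in those of Yeats2 auxin. The rRNA genes received 965 and 187 reads in Control, 184, 246 and 257 in the Zzz3 auxin libraries and 424, 157 and 381 in those of Yeats2 auxin, so that Control replicate 1 alone was high.

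Facts of the whole series bear on these values. Gene-assigned reads ranged from 14315120, in Zzz3 auxin replicate 3, to 27884704. Zzz3 mRNA was 186 and 182 CPM in Control against 77.5, 96.9 and 112 CPM in Zzz3 auxin (log2 fold change (FC) -0.95 ± 0.14 (SE), edgeR adjusted P = 0.0187), and Yeats2 mRNA was 90.9 and 95.8 CPM against 77.3, 103 and 43.7 CPM in Yeats2 auxin (-0.32 ± 0.26, adjusted P = 0.605). The degron acts on the protein, so these RNA levels do not check the depletion. All 7 ESC markers were above 1 CPM in each group, with a summed level of 4685 to 4878 CPM in Control, 4288 to 4735 in Zzz3 auxin and 4176 to 4921 in Yeats2 auxin. Summed levels were 4.14 to 8.48 CPM over all libraries for 5 fibroblast markers, 0.998 to 2.01 CPM for 5 extraembryonic endoderm markers, 68.8 to 118 CPM for 4 neural markers and 12.2 to 22.8 CPM for 4 mesendoderm markers. The neural sum did not overlap between Control (68.8 to 85.3 CPM) and Zzz3 auxin (92.5 to 118 CPM), and its part in the results was not tested. Libraries also differed in how the levels of GC-rich genes (over 53.9% GC) stood to those of GC-poor genes (under 44.3%): the difference of their median log2 deviations was -0.59 and -0.08 in Control, 0.15, -0.03 and 0.43 in the Zzz3 auxin libraries and 0.04, 0.13 and -0.03 in those of Yeats2 auxin. The tested mitochondrial genes have 27.5% to 44.9% GC. With each library corrected for its trend on GC content and length, the median log2 FC of the tested mRNAs in Zzz3 auxin went from -0.41 to -0.12. That of the tested tRNAs went from -0.74 to -0.24. In Yeats2 auxin these medians went from -0.44 to -0.19 and from -0.51 to -0.18. GC content and length were corrected together, and the part of GC content alone was not tested.

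Each comparison was fitted over 17532 genes with edgeR, and calls required an adjusted P below 0.05. This called 0.753% of the genes for Zzz3 auxin against Control, 0.445% for Yeats2 auxin against Control and 0% for Yeats2 auxin against Zzz3 auxin. No mitochondrially encoded gene was called in any of the 3 comparisons. At an unadjusted P under 0.05, 6 of the 17 tested members were lower in Zzz3 auxin than in Control, beside 21.7% of all genes in either direction. It was 2 of 17, both lower, for Yeats2 auxin against Control, beside 14.6%, and 2 of 17, with 1 in each direction, between both auxin groups, beside 6.25%. DESeq2, the tool of the study, called 6.3%, 2.38% and 0.0171% of the genes in the same order, and of the members it called mt-Tp in Zzz3 auxin. It gave no adjusted P to 6 of the 8 tested tRNAs in Zzz3 auxin (mt-Ti, mt-Tq, mt-Tm, mt-Tw, mt-Ta and mt-Tt) and to the first 5 of these in Yeats2 auxin, so that they could not be called by this tool. Both comparisons against Control share the same 2 Control libraries, so that values of both are not independent.

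The fitted changes against Control were nearly all negative: 16 of 17 members in Zzz3 auxin, with mt-Tq as the exception, and 17 of 17 in Yeats2 auxin. The median over the members was -0.61 and -0.49, whereas the median of all genes tested was 0.01 and -0.01. In Zzz3 auxin, 8 of the 17 members had every library below both Controls, beside 18.9% of all genes, and mt-Tq had every library above them, beside 16.8%. In Yeats2 auxin, 6 members lay below both Controls, beside 21% of all genes, and none above, beside 19.3%. Between both auxin groups, mt-Tt lay lower in every Yeats2 auxin library, beside 5.82% of all genes, and mt-Ti and mt-Tp higher, beside 5.25%. The members are not independent of each other, since they come from shared precursors. Fewer were negative with each library corrected for its trend on GC content and length. In Zzz3 auxin these were 4 of 7 mRNAs, 2 of 2 rRNAs and 6 of 8 tRNAs. In Yeats2 auxin they were 6 of 7, 2 of 2 and 5 of 8. Without Control replicate 1, both rRNAs had positive values in both auxin groups.

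**Figure D2:**
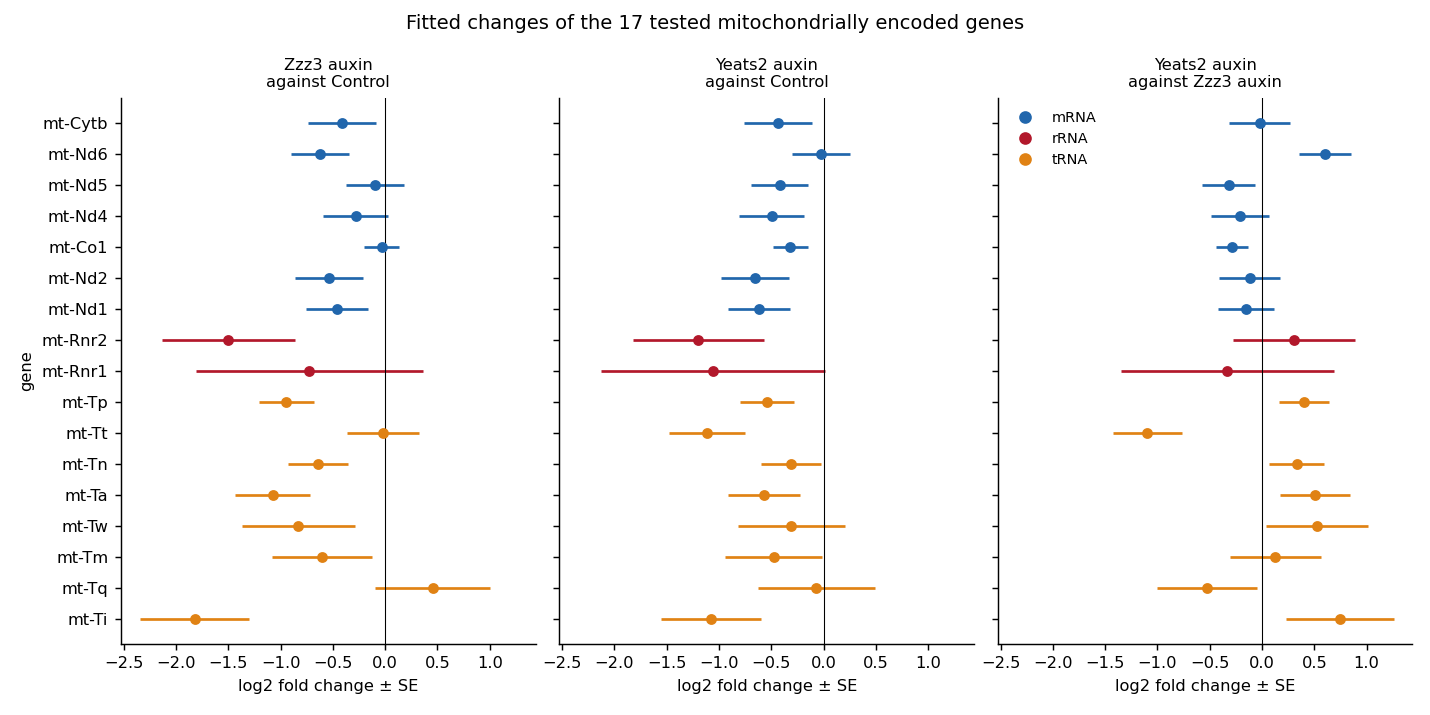
Log2 FC (points) with SE (bars) of the 17 tested mitochondrially encoded genes in the 3 comparisons, from the edgeR fit on all 8 libraries, coloured by RNA class. Most values against Control lie left of 0, with the widest bars for the rRNAs, and none was called.

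The mRNAs were led by mt-Co1, which encodes the catalytic subunit of cytochrome c oxidase, complex IV. Its level per length was 4299 CPM per kb over all libraries, followed by mt-Nd1 with 1766, mt-Cytb with 914, mt-Nd2 with 214, mt-Nd6 with 209, mt-Nd5 with 165 and mt-Nd4 with 110 CPM per kb. The lowest library of mt-Co1, at 2910 CPM per kb, was above the highest of mt-Nd1, at 2607, while mt-Nd1 and mt-Cytb overlapped over libraries, as did mt-Nd2, mt-Nd6, mt-Nd5 and mt-Nd4. The order depends on the length that can be read: per 1000 positions at which a 100-base stretch is not shared with a nuclear transcript, mt-Co1 stood at 6643 CPM, mt-Nd1 at 1969 and mt-Cytb at 1000, and mt-Nd4 at 303, now above mt-Nd6 at 258, mt-Nd2 at 245 and mt-Nd5 at 175.

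mt-Co1 was nearly level between Control and Zzz3 auxin. It had 7478 and 6996 CPM in Control, 7872, 6331 and 7034 CPM in Zzz3 auxin and 6164, 4496 and 6769 CPM in Yeats2 auxin. The log2 FC was -0.03 ± 0.17 (SE) in Zzz3 auxin, with the library ranges overlapping (adjusted P = 0.937). In Yeats2 auxin it was -0.32 ± 0.17 and every library lay below both Controls (adjusted P = 0.400). The difference between both auxin groups, -0.29 ± 0.15, was not called (adjusted P = 0.779).

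mt-Nd1, a membrane subunit of complex I, had 2495 and 1907 CPM in Control, 1747, 1431 and 1623 CPM in Zzz3 auxin and 1770, 766 and 1777 CPM in Yeats2 auxin. All 6 auxin libraries lay below both Controls. Its log2 FC was -0.46 ± 0.30 in Zzz3 auxin (adjusted P = 0.396) and -0.61 ± 0.29 in Yeats2 auxin (adjusted P = 0.364). mt-Nd2, also a membrane subunit of complex I, had the same order of groups, with 349 and 247 CPM in Control, 173 to 230 CPM in Zzz3 auxin and 96.9 to 238 CPM in Yeats2 auxin. Its log2 FC was -0.54 ± 0.32 and -0.66 ± 0.32, and neither was called (adjusted P = 0.370 and 0.377).

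mt-Cytb, which encodes cytochrome b of complex III, had 1483 and 1104 CPM in Control, 846 to 1136 CPM in Zzz3 auxin and 481 to 1206 CPM in Yeats2 auxin. Both auxin groups overlapped Control, and the log2 FC was -0.41 ± 0.33 and -0.44 ± 0.33 (adjusted P = 0.497 and 0.568). mt-Nd4 and mt-Nd5, further membrane subunits of complex I, also overlapped. mt-Nd4 had a log2 FC of -0.28 ± 0.31 and -0.49 ± 0.31 (adjusted P = 0.640 and 0.491), and mt-Nd5 of -0.10 ± 0.28 and -0.42 ± 0.28 (adjusted P = 0.869 and 0.508).

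mt-Nd6 is the mRNA of the minus strand and encodes yet another complex I subunit. It had 156 and 95.2 CPM in Control, 56.1, 87.8 and 101 CPM in Zzz3 auxin and 124, 152 and 94.0 CPM in Yeats2 auxin. Its highest Yeats2 auxin value came from replicate 2, the library in which the other 6 tested mRNAs were at their lowest. Its log2 FC was -0.62 ± 0.28 in Zzz3 auxin (adjusted P = 0.224) and -0.02 ± 0.28 in Yeats2 auxin (adjusted P = 0.980). Without Control replicate 1 these values were -0.23 and 0.38, and without Control replicate 2 they were -0.93 and -0.33. Between both auxin groups it was 0.60 ± 0.25 (adjusted P = 0.779). The library kit keeps the strand of the RNA, but whether the counting used it is not given in the sources used here. mt-Nd6 overlaps mt-Nd5 by the end of both genes, and without strand its reads could not be told apart from plus-strand RNA.

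**Figure D3:**
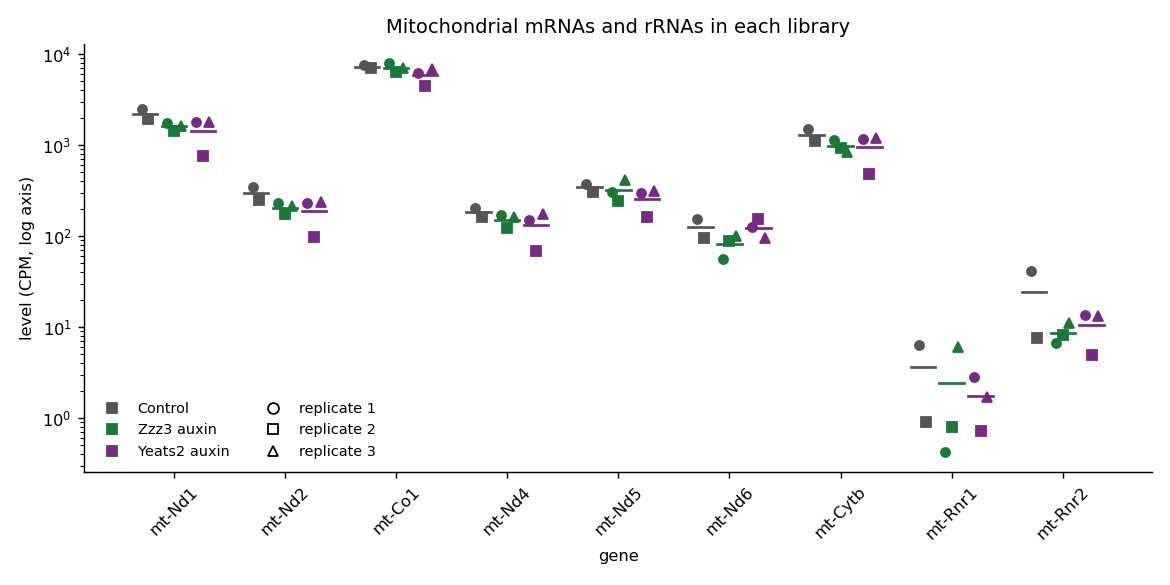
Levels of the 7 tested mRNAs and both rRNAs in each library, in CPM on a log axis. Symbols are libraries by replicate number and horizontal lines are group means. Replicate 2 of Yeats2 auxin is lowest for each mRNA but mt-Nd6, and Control replicate 1 is highest for both rRNAs.

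As a class, the median change of the 7 tested mRNAs (log2 FC) was -0.41 in Zzz3 auxin and -0.44 in Yeats2 auxin, against a spread of the class median between replicates of 0.47 (pooled SD, log2). Without Control replicate 1 the medians were -0.19 and -0.27, with mt-Nd1 at -0.26 and -0.41 and mt-Nd2 at -0.27 and -0.39. Without replicate 2 of Yeats2 auxin the median of that group was -0.19, and its difference from Zzz3 auxin turned from -0.15 to 0.15. With each library corrected for its trend on GC content and length they were -0.12 and -0.19.

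The mRNAs did not keep a fixed ratio to each other. mt-Co1 gave 3.00 and 3.67 reads per mt-Nd1 read in Control, 4.51, 4.42 and 4.33 in the Zzz3 auxin libraries and 3.48, 5.87 and 3.81 in those of Yeats2 auxin. All 3 Zzz3 auxin libraries were above both Controls and close to each other, while Yeats2 auxin overlapped Control. mt-Nd2 stayed between 0.121 and 0.140 reads per mt-Nd1 read in all 8 libraries. mt-Nd6 gave 0.0624 and 0.0499 reads per mt-Nd1 read in Control, 0.0321, 0.0613 and 0.0621 in the Zzz3 auxin libraries and 0.0703, 0.198 and 0.0529 in those of Yeats2 auxin, where replicate 2 stood apart. These ratios were set side by side after the levels were known and were not tested.

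**Figure D4:**
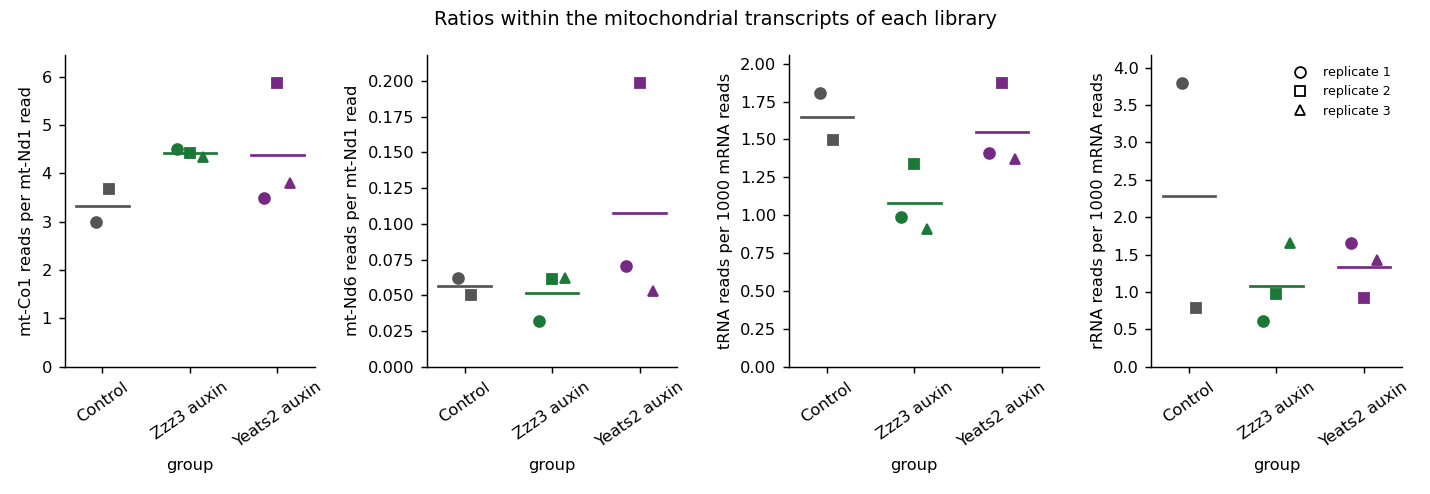
Ratios of reads within the mitochondrial transcripts of each library, by group (symbols are replicates, lines are means): mt-Co1 and mt-Nd6 per mt-Nd1 read, and tRNA and rRNA reads per 1000 mRNA reads. mt-Co1 per mt-Nd1 is above both Controls in each Zzz3 auxin library, and replicate 2 of Yeats2 auxin is highest in the first 3 panels.

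The rRNA genes, mt-Rnr1 for the small and mt-Rnr2 for the large subunit of the mitochondrial ribosome, varied most. mt-Rnr2 had 41.2 and 7.57 CPM in Control, 6.64, 8.21 and 11.2 CPM in Zzz3 auxin and 13.6, 4.96 and 13.4 CPM in Yeats2 auxin, so that the high value was Control replicate 1 alone. It had a log2 FC of -1.501 ± 0.64 and -1.20 ± 0.63 (adjusted P = 0.217 and 0.412), but without that library it was 0.18 and 0.49 (adjusted P = 0.948 and 0.954). mt-Rnr1 had 6.41 and 0.91 CPM in Control, 0.42, 0.81 and 6.02 CPM in Zzz3 auxin and 2.82, 0.72 and 1.70 CPM in Yeats2 auxin, with a log2 FC of -0.73 ± 1.08 and -1.06 ± 1.07 (adjusted P = 0.740 and 0.688). These values are what 2 removal steps left behind, and no order of the groups can be read from them.

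Among the tRNA genes, those of the minus strand gave most of the reads, although they are 8 of 22. Whether the counting used the strand is not given, so their reads may include plus-strand RNA. The plus-strand mt-Td, mt-Tk, mt-Tg and mt-Tr and the minus-strand mt-Ts1 lie inside the chromosome 1 copy and had no read. By flanking pseudogenes, the plus-strand mt-Tw and the minus-strand mt-Ta, mt-Tn, mt-Tc and mt-Ty lie inside the chromosome 2 copy. The part of either copy in the strand shares was not tested. Minus-strand genes held 76.7% and 78.4% of the tRNA reads in Control and 75.4%, 77.1% and 73.8% in the Zzz3 auxin libraries. In those of Yeats2 auxin they held 80.1%, 87.3% and 74.3%. For the highest value, replicate 2 of Yeats2 auxin, the 95% Wilson interval was 83.2% to 90.5% and lay above the intervals of all other libraries except that of Yeats2 auxin replicate 1, which reached 83.9%. By the counts, mt-Tp alone had a mean of 166.5 reads per library, mt-Tn 49.6, mt-Tt 25.4, mt-Tw 21.8 and mt-Ta 20.9, and mt-Tm, mt-Tq and mt-Ti had 11.5, 10.6 and 10.2. The sequences of the tRNA genes that the following results turn on are given with the anticodon in capitals, read 5′ to 3′ on their own strand from the annotated transcripts.

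mt-Tp, proline, chrM:15356-15422, minus strand: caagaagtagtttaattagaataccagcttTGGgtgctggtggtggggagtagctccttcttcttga
mt-Tt, threonine, chrM:15289-15355, plus strand: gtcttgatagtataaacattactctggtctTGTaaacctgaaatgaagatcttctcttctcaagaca
mt-Ta, alanine, chrM:5018-5086, minus strand: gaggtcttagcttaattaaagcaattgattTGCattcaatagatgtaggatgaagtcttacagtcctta
mt-Tn, asparagine, chrM:5089-5159, minus strand: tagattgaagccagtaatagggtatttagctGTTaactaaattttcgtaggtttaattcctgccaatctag

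mt-Tp and mt-Tt lie end to end on opposite strands between mt-Cytb and the noncoding control region, and mt-Ta and mt-Tn lie next to each other between mt-Nd2 and mt-Co1. mt-Tp had 12.9 and 7.21 CPM in Control, 5.41, 6.05 and 4.08 CPM in Zzz3 auxin and 7.78, 6.77 and 6.17 CPM in Yeats2 auxin. Every Zzz3 auxin library lay below both Controls and below every Yeats2 auxin library. The log2 FC was -0.94 ± 0.26 in Zzz3 auxin, with the smallest adjusted P of the members in this comparison (0.0888) and past the threshold with DESeq2 (adjusted P = 0.0180), and -0.54 ± 0.26 in Yeats2 auxin (adjusted P = 0.356). Over the alternatives its adjusted P in Zzz3 auxin ran from 0.00379 to 0.683, the highest without Control replicate 1, where the log2 FC was -0.47. In the same fit the Yeats2 auxin value was -0.06. With the correction for GC content and length, mt-Tp had -0.50 in Zzz3 auxin and -0.28 in Yeats2 auxin.

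mt-Tt had 1.38 and 1.41 CPM in Control and 1.42, 1.36 and 1.34 CPM in Zzz3 auxin, but 0.66, 0.36 and 0.91 CPM in Yeats2 auxin. The 3 Yeats2 auxin libraries lay below the other 5, which differed little. The log2 FC was -0.02 ± 0.35 in Zzz3 auxin (adjusted P = 0.983), -1.12 ± 0.36 in Yeats2 auxin (adjusted P = 0.197) and -1.10 ± 0.33 between both auxin groups (adjusted P = 0.779). It rests on 10 to 37 reads per library and was not called.

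mt-Ta, with 1.48 and 1.13 CPM in Control, 0.77, 0.62 and 0.40 CPM in Zzz3 auxin and 0.97, 0.72 and 0.95 CPM in Yeats2 auxin, was below both Controls in all 6 auxin libraries. Its change was -1.07 ± 0.36 and -0.57 ± 0.34 (adjusted P = 0.127 and 0.464), and -0.88 and -0.37 without Control replicate 1. With the correction for GC content and length it was -0.49 and -0.14, and that of mt-Tn, given next, was -0.11 and 0.08. mt-Tn had 2.12 and 3.18 CPM in Control, 1.42, 1.94 and 1.74 CPM in Zzz3 auxin and 1.70, 2.10 and 2.61 CPM in Yeats2 auxin, with a log2 FC of -0.64 ± 0.29 and -0.31 ± 0.28 (adjusted P = 0.227 and 0.643). The remaining tested minus-strand tRNA, mt-Tq for glutamine, had a positive value in Zzz3 auxin, with 0.49 and 0.32 CPM in Control and 0.54, 0.59 and 0.54 CPM there (0.46 ± 0.55, adjusted P = 0.668). It overlaps mt-Ti by 3 bases on the opposite strand.

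mt-Tw for tryptophan had a log2 FC of -0.83 ± 0.54 and -0.31 ± 0.51, and mt-Tm for methionine -0.61 ± 0.47 and -0.48 ± 0.46, all uncalled (adjusted P from 0.396 to 0.815). mt-Ti for isoleucine, which was added after its values were seen, had 1.23 and 0.45 CPM in Control, 0.19, 0.29 and 0.20 CPM in Zzz3 auxin and 0.39, 0.40 and 0.40 CPM in Yeats2 auxin. The groups did not overlap, and the log2 FC was -1.82 ± 0.52 and -1.08 ± 0.48 (adjusted P = 0.0960 and 0.327), on a mean of 10.2 reads per library. Without Control replicate 1 the values were -0.95 and -0.20 (adjusted P = 0.721 and 0.984). The remaining 6 tRNAs with any read, mt-Tf, mt-Tv, mt-Tl1, mt-Tc, mt-Tl2 and mt-Te, had mean counts of 0.125 to 6.12 and were not tested.

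**Figure D5:**
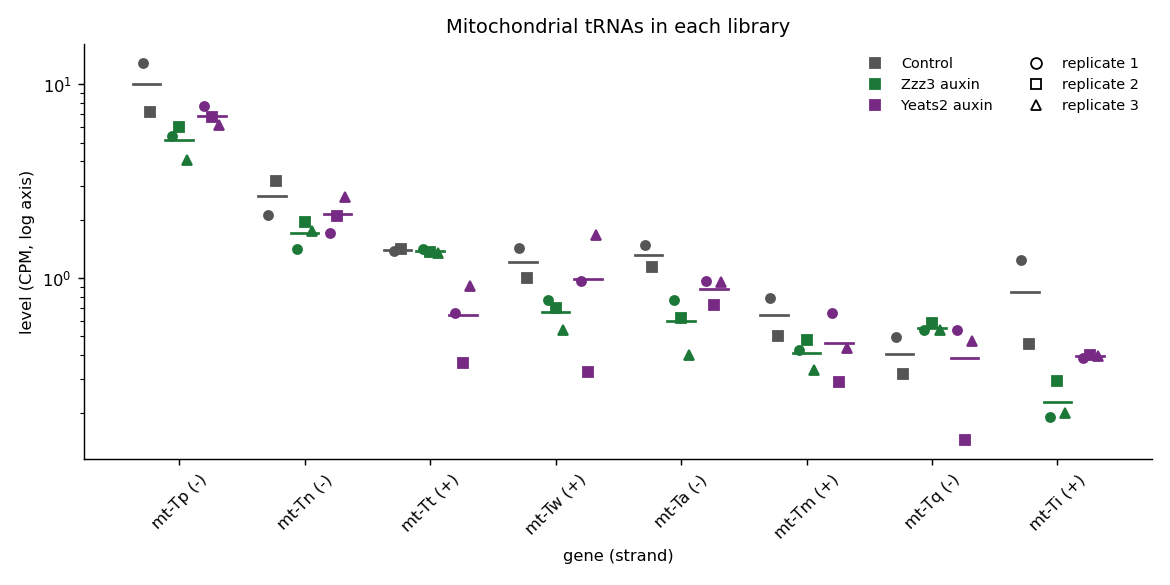
Levels of the 8 tested tRNA genes in each library, in CPM on a log axis, with the strand in brackets. Symbols are libraries by replicate number and lines are group means. mt-Tp and mt-Ti are lowest in the Zzz3 auxin libraries, and mt-Tt is lowest in the Yeats2 auxin libraries.

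The median change of the 8 tested tRNAs (log2 FC) was -0.74 in Zzz3 auxin, -0.51 in Yeats2 auxin and 0.37 between both auxin groups, against a spread between replicates of 0.31 (pooled SD, log2). By strand, the median was -0.79 for 4 minus-strand and -0.72 for 4 plus-strand tRNAs in Zzz3 auxin, whereas Yeats2 auxin had -0.43 for the former and -0.78 for the latter. With the correction for GC content and length the class medians against Control were -0.24 and -0.18. The tRNA genes gave 1.81 and 1.497 reads per 1000 mitochondrial mRNA reads in Control, 0.989, 1.34 and 0.908 in the Zzz3 auxin libraries and 1.41, 1.87 and 1.37 in those of Yeats2 auxin. All 3 Zzz3 auxin libraries lay below both Controls and below every Yeats2 auxin library, while Yeats2 auxin and Control overlapped. The gap to Yeats2 auxin was narrow, 1.34 against 1.37, on 340 and 366 tRNA reads in these 2 libraries. This ratio was not tested. Of 6 tested small structural RNAs from nuclear genes, none was called, and 2 were higher in Zzz3 auxin at an unadjusted P under 0.05, beside 21.7% of all genes in either direction. Among them 7SK RNA (Rn7sk) overlapped between groups, with 7916 and 16359 CPM in Control, 11019, 11621 and 30038 CPM in Zzz3 auxin and 12384, 20931 and 10511 CPM in Yeats2 auxin. Whether the recovery of small RNAs had a part in the tRNA values was not tested.

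The nuclear genes that make and process these RNAs were examined from 4 lists with 64 genes, all of which were tested. None was called in any comparison by edgeR, and DESeq2 called 4 in Zzz3 auxin, namely Polrmt, Tfam, Fastkd3 and Fastkd2. By edgeR, at an unadjusted P under 0.05 there were 16 of 64 in Zzz3 auxin, 6 higher and 10 lower, beside 21.7% of all genes, 17 of 64 in Yeats2 auxin, 6 higher and 11 lower, beside 14.6%, and 2 between both auxin groups, both higher in Yeats2 auxin, beside 6.25%. The median log2 FC over all 64 was 0.01 and 0.02 against Control.

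Of 14 genes for mitochondrial DNA maintenance and transcription, 4 in Zzz3 auxin, beside 21.7% of all genes, and 5 in Yeats2 auxin, beside 14.6%, passed an unadjusted P under 0.05. Polrmt, the mitochondrial RNA polymerase, had 12.9 and 20.0 CPM in Control, 27.4, 20.3 and 44.4 CPM in Zzz3 auxin and 21.97, 23.7 and 22.4 CPM in Yeats2 auxin. Both auxin groups lay above Control, beside 16.8% and 19.3% of all genes, with a log2 FC of 0.89 ± 0.29 and 0.46 ± 0.29 (adjusted P = 0.122 and 0.475). The lowest and highest values of Polrmt came from Control replicate 1 and Zzz3 auxin replicate 3. These libraries also had the lowest and highest difference between GC-rich and GC-poor genes, -0.59 and 0.43. The part of GC content in the change of Polrmt was not tested on its own. Tfam, which packages mitochondrial DNA and starts its transcription, went the other way with 152 and 144 CPM in Control, 112 to 123 CPM in Zzz3 auxin and 122 CPM in each Yeats2 auxin library. Its log2 FC was -0.35 ± 0.10 and -0.28 ± 0.10 (adjusted P = 0.102 and 0.252). Tefm, an elongation factor of the same polymerase, had -0.04 ± 0.14 and -0.13 ± 0.14 (adjusted P = 0.895 and 0.705).

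Of 21 genes for cleavage, stability, polyadenylation and decay of mitochondrial transcripts, 9 passed an unadjusted P under 0.05 in each auxin group, 6 and 8 of them lower, beside the same 21.7% and 14.6% of all genes. The stem-loop binding partner Slirp had 188 and 172 CPM in Control, 112 to 149 CPM in Zzz3 auxin and 127 to 157 CPM in Yeats2 auxin, all below Control, with a log2 FC of -0.46 ± 0.14 and -0.36 ± 0.14 (adjusted P = 0.109 and 0.263). Its partner Lrpprc, with which it protects mitochondrial mRNAs, had -0.11 ± 0.11 and -0.09 ± 0.11 (adjusted P = 0.593 and 0.726). Trmt10c, the methyltransferase subunit of mitochondrial RNase P, had -0.33 ± 0.12 and -0.27 ± 0.12 (adjusted P = 0.150 and 0.324), whereas Hsd17b10, of the same enzyme, had 0.05 ± 0.12 and -0.08 ± 0.12 (adjusted P = 0.833 and 0.792), and Elac2 had 0.19 ± 0.12 and 0.10 ± 0.12 (adjusted P = 0.391 and 0.747).

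The poly(A) polymerase Mtpap had a log2 FC of -0.17 ± 0.14 and -0.19 ± 0.14 (adjusted P = 0.503 and 0.567). In the mitochondrial degradosome, the exoribonuclease Pnpt1 had -0.15 ± 0.10 and -0.24 ± 0.10 (adjusted P = 0.432 and 0.314), and the helicase Supv3l1 had 0.29 ± 0.13 and 0.31 ± 0.12 (adjusted P = 0.203 and 0.289). Fastkd3, of a family of mitochondrial RNA-binding proteins, was nearest to a call in Zzz3 auxin, with 75.14 and 75.02 CPM in Control and 50.6 to 55.8 CPM there (-0.49 ± 0.11, adjusted P = 0.0636), and it was named after its values were seen. Of 13 genes for tRNA end maturation and modification, 2 and 1 passed an unadjusted P under 0.05, and of 16 genes for rRNA modification and ribosome assembly, 1 and 2 did, beside 21.7% and 14.6% of all genes.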

How the data were processed

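Members and gene lists were chosen with earlier results of these data known. The deposited values are raw counts per gene, 1 file per library. According to the study's methods, the authors trimmed reads, discarded rRNA reads, aligned the rest to mm10 and counted uniquely aligned reads in union mode on Ensembl genes. The submitters' processing notes name STAR 2.5.3a, HTSeq 0.6.1p1, R 3.3.2 and DESeq2 1.16.1. The labels describe a stranded total RNA kit with ribodepletion but name poly(A) RNA as the molecule, and the methods describe another depletion kit. The strand option is not given in the sources used here. The 5 tallies of unassigned reads were left out of all library sizes.

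Symbols, positions and transcript sequences were read from GENCODE for GRCm38 (mm10). Genes kept by filterByExpr (17532) were scaled by TMM, and edgeR 4.0.16 was run on all 8 libraries at once (robust quasi-likelihood test, 1 mean per group, R 4.3.3), two-sided, with Benjamini-Hochberg adjustment over all genes tested. SEs were obtained as the log2 FC over the root of the F statistic. CPM are TMM-scaled. A shared stretch is an identical 40-base or 100-base sequence in an annotated nuclear transcript on either strand. Alternatives used DESeq2 1.42.0 and limma 3.58.1, and summaries used pandas 2.3.3 and numpy 2.4.6 under Python 3.11.15, with plots by matplotlib 3.10.9. Anticodons were found as 3 bases inside a loop closed by at least 4 of 5 pairs that read a codon of the named amino acid.

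All mRNAs and rRNAs are named. Of the tRNAs, the 6 with the highest mean CPM, those on the strand of mt-Nd6 with a mean of at least 10 reads and any called were named, and of the nuclear lists those called and 11 fixed genes. Lists were for 7 small structural RNAs, 5 nuclear-retained RNAs, 4 cytosolic rRNA remnants (0 matched, not used here), 4 nuclear sets and 5 marker sets. The fit was tested on simulated data. Replicate numbers gave no regular pairing of the libraries.
Alternatives changed the test, scaling, filter, libraries entering the fit, a replicate block and a correction for GC content and length. Assigned reads per library, given with the results, limit the rarest tRNAs most, and shares have 95% Wilson intervals for counting error.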

Additional observations from a re-analysis of the deposited data

How the results depend on the processing

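Of 336 recomputed summaries (calls, class medians and class shares), 321 stayed within the replicate spread or within 1.5 times the reported count, and 15 moved. This rule is wide for the class medians. The spread allowed was 0.47 for mRNAs, 1.25 for rRNAs and 0.31 for tRNAs (pooled SD, log2). A median could therefore change sign and still count as unmoved. Of the 162 class medians, 7 moved and 9 changed sign. DESeq2 called 1 mitochondrially encoded gene in Zzz3 auxin, and edgeR without a filter on low counts called 3 (mt-Tp, mt-Nd6 and mt-Ti) and, between both auxin groups, 1 (mt-Nd6, log2 FC 0.62). For the nuclear lists in Zzz3 auxin the count was 4 with DESeq2, 5 without the filter and 0 to 2 with 1 library left out, 2 being without replicate 2 of Zzz3 auxin. The correction for GC content and length moved the tRNA median to -0.24 in Zzz3 auxin and -0.18 in Yeats2 auxin. With 1 library left out, the rRNA median ran from -2.11 to 0.73 in Zzz3 auxin and from -1.91 to 0.71 in Yeats2 auxin, and the rRNA share relative to Control from 0.244 to 1.35 and from 0.266 to 1.47, all turning without Control replicate 1. The tRNA median ran from -1.07 to -0.56 in Zzz3 auxin and from -0.77 to -0.20 in Yeats2 auxin, the last without Control replicate 1. Leaving out a Control library leaves 1, which is then assumed to vary like the other groups. Of 903 member values, 45 had another sign and 5 were called. The cause was not tested.

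Counts over all genes depended on the setting, and for Zzz3 auxin, Yeats2 auxin and the direct comparison they were 1105, 417 and 3 with DESeq2, 1542, 553 and 117 without the filter, 0, 454 and 0 with only the 2 groups compared, 167, 132 and 0 with the GC and length correction and 82, 375 and 1 with limma-voom. With 1 library left out they were 0 to 841, 0 to 217 and 0 to 1. Replicate numbers gave no regular pairing of the libraries (same-number correlation of deviations 0.034, 0.049 and -0.033 between the auxin groups). Same-number pairs with Control had 0.0785 and -0.172 for Zzz3 auxin and 0.077 and 0.196 for Yeats2 auxin. Pairs with Control of unlike number ran from -0.214 to 0.214. A replicate block gave 42, 32 and 0 calls with no mitochondrially encoded gene among them, and the block with the GC and length correction gave 66, 57 and 0 calls and tRNA medians of -0.28 and -0.17. Depth limits the tRNA genes most, since only mt-Tp had over 100 reads per library on average.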
